A study of Mus musculus with 2 samples.

Results

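Meg3, Rian, Mirg and B830012L14Rik are 4 long noncoding RNA genes that lie in a row on 1 strand of an imprinted domain of the mouse genome, and their RNA was followed here through the cells of the adult vomeronasal organ (VNO). The 4 genes were taken by name from the 32285 genes of the deposited tables. They were selected on their levels in the cell types of these same libraries, and those levels are given as a description, with no test. The data are single-cell RNA-seq of the whole VNO, the paired organ of the nasal septum that senses pheromones, from untreated wild-type C57BL/6J male mice at postnatal day 60. There were 2 libraries, each made from pooled organs (5 per sample in the labels, with 10000 cells targeted), and no treatment groups, no genotypes and no second age. The cells were dissociated enzymatically, stored frozen and captured with a droplet kit that counts the 3′ ends of polyadenylated RNA as unique molecular identifiers (UMIs), each standing for 1 captured RNA molecule.

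The domain, named Dlk1-Dio3 after its outer protein-coding genes, is imprinted, which means that its genes are read from the chromosome of 1 parent only. The maternal chromosome makes the noncoding RNAs. Meg3 (Gtl2) is a long noncoding RNA, Rian (Meg8) is the host of many small nucleolar RNAs, and Mirg (Meg9) is the host of a large group of microRNAs. The paternal chromosome makes Dlk1, a transmembrane protein of the Notch ligand family, Rtl1, a protein derived from a retrotransposon, and Dio3, the deiodinase that inactivates thyroid hormone. In the VNO, vomeronasal sensory neurons (VSNs) of an apical and a basal type stand among sustentacular cells, which are non-neuronal support cells, and new VSNs arise from progenitors at the edges of the epithelium. Libraries like these do not tell the parental chromosomes apart, so imprinting itself was not measured.

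In the GENCODE vM21 annotation of the mm10 build the members lie on chromosome 12, all on the plus strand. Meg3 (ENSMUSG00000021268) spans 109541001 to 109571726, Rian (ENSMUSG00000097451) spans 109603940 to 109661716, B830012L14Rik (ENSMUSG00000098202) spans 109695586 to 109702587 and Mirg (ENSMUSG00000097391) spans 109729764 to 109749460. From the start of Meg3 to the end of Mirg is 208 kb. Rtl1 lies between Meg3 and Rian on the opposite strand, Dlk1 ends 77.7 kb before Meg3, and Dio3 starts 530 kb after the end of Mirg, next to its antisense gene Dio3os.

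**Figure D1:**
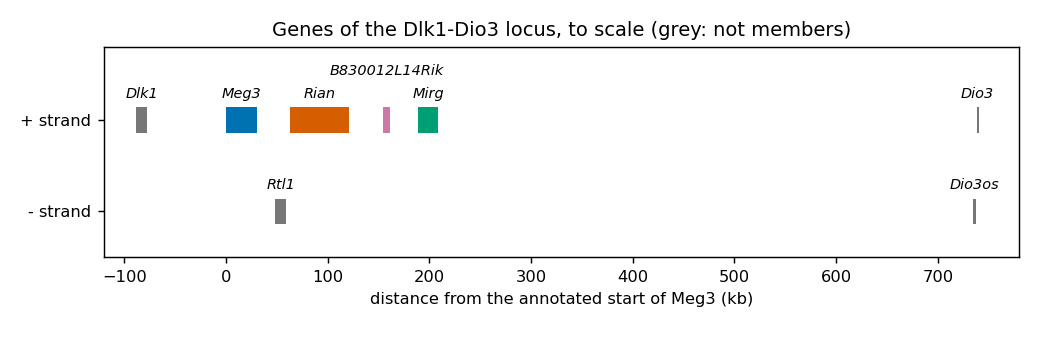
Map of the domain, with distance from the annotated start of Meg3 in kb on the x axis and each gene drawn to scale. The 4 noncoding members occupy the first 208 kb, and grey genes are the neighbours that were measured beside them.

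The window from 250 bases before to 50 bases after the start of Meg3 is shown because it is the only member window that held each of the motifs searched. It is RefSeq sequence of GRCm38.p6, chr12:109540746-109541045, plus strand, written 5′ to 3′. Capitals mark CCAAT, the cyclic AMP response element TGACGTCA, and a TATA box made of the overlapping TTTATA and TATAAA. The window 5′ of Dio3, chr12:110278980-110279279, plus strand, is shown for comparison because Dio3 had a different pattern across cells, and its capitals mark CCAAT, its reverse complement ATTGG, and TATAAA.
Meg3 promoter: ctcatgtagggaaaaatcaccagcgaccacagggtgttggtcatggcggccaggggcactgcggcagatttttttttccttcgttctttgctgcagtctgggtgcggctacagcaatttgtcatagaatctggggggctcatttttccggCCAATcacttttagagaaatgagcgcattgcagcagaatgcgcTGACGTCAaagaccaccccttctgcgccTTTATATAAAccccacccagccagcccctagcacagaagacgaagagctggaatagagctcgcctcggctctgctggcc
Dio3 promoter: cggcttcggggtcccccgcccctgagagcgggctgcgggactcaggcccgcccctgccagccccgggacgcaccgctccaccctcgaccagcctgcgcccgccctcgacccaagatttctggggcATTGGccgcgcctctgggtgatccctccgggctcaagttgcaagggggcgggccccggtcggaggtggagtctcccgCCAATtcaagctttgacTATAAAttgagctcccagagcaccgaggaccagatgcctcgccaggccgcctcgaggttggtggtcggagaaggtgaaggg

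In the Meg3 window CCAAT began 100 bases before the start and TGACGTCA began 57 bases before it. Of all 32851 mouse promoter windows of this length, 1.79% held TGACGTCA, 37.4% held CCAAT and 13.6% held TATAAA on either strand. The Meg3 window was 53.7% G and C with 13 CpG dinucleotides, against 69.0% and 25 in the Dio3 window. The medians over all windows were 52.7% and 7 CpG. A further annotated Meg3 start and the windows of Rian and Mirg held neither TGACGTCA nor TATAAA. The RefSeq window of Mirg, chr12:109734731-109735030, lies inside the GENCODE span of Mirg given above. It thus does not show the sequence before that start.

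Because the kit captures RNA by its poly(A) tail, the 3′ ends of the members bear on how they were counted. The last 80 bases of the longest annotated transcript of each member are shown, with the polyadenylation signal AATAAA in capitals.
Meg3 end: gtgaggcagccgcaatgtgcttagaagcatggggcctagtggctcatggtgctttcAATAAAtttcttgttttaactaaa
Rian end: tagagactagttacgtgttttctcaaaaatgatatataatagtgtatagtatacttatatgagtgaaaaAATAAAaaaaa
Mirg end: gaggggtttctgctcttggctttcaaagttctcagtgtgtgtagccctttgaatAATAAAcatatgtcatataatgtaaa
B830012L14Rik end: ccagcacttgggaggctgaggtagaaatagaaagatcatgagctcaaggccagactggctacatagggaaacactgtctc

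The longest transcripts of Meg3, Rian, Mirg and B830012L14Rik were 14548, 8089, 3822 and 4505 bases long. The signal began 24 bases from the end in Meg3, 11 in Rian and 26 in Mirg, and the B830012L14Rik end held no AATAAA. Capture of an RNA depends on its own 3′ end, so levels were compared between cell classes for each gene and not between genes.

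The host genes carry small RNAs that these libraries did not measure. Of 54 microRNA hairpins listed in the RefSeq table on the plus strand between the start of Meg3 and the end of Mirg, 18 lay within a member. Meg3 held 1, Rian held 3, Mirg held 14 and B830012L14Rik held 0, and 22 lay between B830012L14Rik and Mirg. The mature miR-1906 is also listed within Meg3, without a hairpin entry. A few mature sequences are shown to make the hosts concrete, with the seed, bases 2 to 8, in capitals. miR-453 and miR-496a-5p, both hosted by Mirg, share a seed.
miR-770-5p in Meg3: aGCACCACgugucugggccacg
miR-370-3p in Rian: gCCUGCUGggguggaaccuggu
miR-134-5p in Mirg: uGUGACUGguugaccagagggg
miR-410-3p in Mirg: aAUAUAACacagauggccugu
miR-453 in Mirg: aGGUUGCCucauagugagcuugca
miR-496a-5p in Mirg: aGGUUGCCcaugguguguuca

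After the study's own limits on genes and mitochondrial RNA per cell, 5694 cells of library 1 and 4898 of library 2 remained, 10592 in all, with medians of 6668 and 6650.5 UMIs per cell. The libraries shared 33 barcode sequences, 3 of them among kept cells. Clusters were made without the genes of the domain and were named from marker genes as "-like" classes, 19 in all, and 1592 cells (15.0%) stayed unnamed. The sustentacular-like class had 281 cells (145 and 136 by library) with a median of 11227 UMIs. Its level of Fezf2, a transcription factor, was 420 UMIs per 1000000 UMIs of the class (CPM) against 32.0 CPM in all other cells, and that of Cyp2a5, a cytochrome P450, was 1547 against 124. Other listed markers were less clear, since Cbr2 was 1.93-fold higher and Sec14l3 had 0 UMIs. A cluster of 339 unnamed cells carried VSN and sustentacular genes together at a median of 26254 UMIs, with 0.590% of its cells called doublets by Scrublet, and a cluster of 112 unnamed cells came from library 1 only.

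Meg3 was high in the sustentacular-like class. Its level there was 2241 CPM in library 1 and 3157 CPM in library 2, or 2684 CPM over both. Both values lay above those of every other named class in either library. In immature VSN-like cells Meg3 was at 244 and 235 CPM, and in fibroblast-like cells, the main stromal class, it was at 168 and 282 CPM. These 2 classes overlapped each other. Between the pooled sums of the classes, the sustentacular-like level was 11.2-fold the immature VSN-like level (95% interval 10.4 to 12) and 12.3-fold the fibroblast-like level (11.5 to 13.2). These exact intervals, like all others here, cover counting error only.

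Below those classes the levels of Meg3 fell in steps that the libraries did not separate. The Neurod1-led precursors, a cluster named by hand with Neurod1 among its leading genes, had 128 and 180 CPM. Markers of immature VSNs (Stmn2, Dcx, Dpysl3 and Stmn1) and of ciliated cells (Foxj1, Dnah5 and Dynlrb2) were also raised in that cluster. The neural progenitor-like cells had 158 and 93.1 CPM. Olfactory ensheathing-like cells, the glia of the nerve bundles, had 36.9 and 95.9 CPM. Mature VSN-like cells were lower still, at 6.46 and 13.5 CPM in the apical type and 7.33 and 43.8 CPM in the basal type. Each of these neighbours in the order overlapped with the next. Taken over both types, mature VSN-like cells were 218-fold below the sustentacular-like class (182 to 262).

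Other epithelial and endothelial cells were at the bottom of the range for Meg3. Basal epithelial-like cells, the keratin-rich cells of the epithelium, had 9.17 and 10.8 CPM. Endothelial-like cells, which line the vessels of the organ, had 6.83 and 11.7 CPM. Gland-like cells had 3.70 and 11.6 CPM, and non-sensory epithelial-like cells had 6.62 and 11.1 CPM. These 4 classes overlapped one another and the macrophage-like cells, which had 6.74 and 14.1 CPM. Among the immune classes, neutrophil-like cells had 93 CPM in library 1 but 18.6 CPM in library 2, on 71 UMIs, and the dendritic-, T cell-, B cell-, natural killer- and monocyte-like cells had between 0 and 20 CPM in either library. The sustentacular-like level was 271-fold that of the basal epithelial-like class and 284-fold that of the endothelial-like class.

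The 281 sustentacular-like cells, 2.65% of all kept cells, held 9462 of the 25699 Meg3 UMIs, or 36.8%. Their shares of the Rian, Mirg and B830012L14Rik UMIs were 34.1%, 40.6% and 34.8%. Unnamed clusters, 15.0% of the kept cells, held 51.0% of the Meg3 UMIs. In the cluster of 339, with its mixed genes, Meg3 was at 1072 and 1291 CPM, so the sustentacular-like level was 2.27-fold higher. A cluster of 647 cells with a median of 1122 UMIs had 933 and 621 CPM. The cluster of 112 cells from library 1 had 744 CPM. Cyp2a5 was at 541, 653 and 678 CPM and Fezf2 at 178, 167 and 190 CPM in these 3 clusters, so they also held sustentacular markers.

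**Figure D2:**
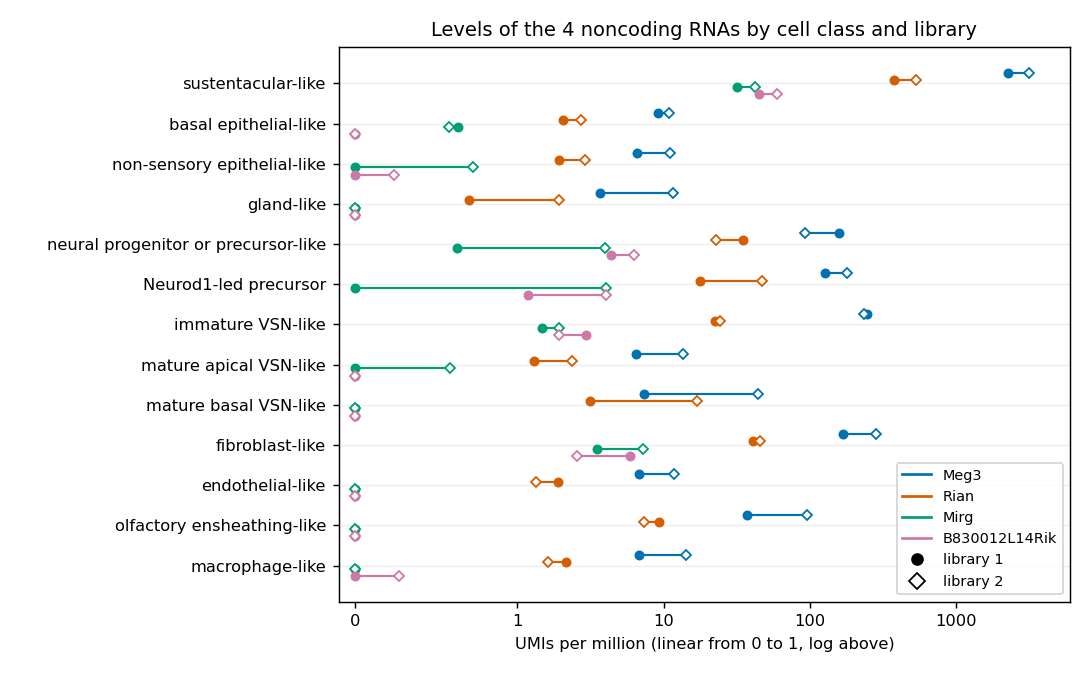
Levels of the 4 noncoding RNAs in each class, in CPM (linear from 0 to 1, logarithmic above), with a point for each library. For each RNA, drawn in its own colour, the sustentacular-like points (Meg3 at 2241 and 3157 CPM) lie to the right of those of every other class drawn.

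Rian followed the same broad order. Its level was 377 and 530 CPM in sustentacular-like cells, and no other named class reached either value. Fibroblast-like cells had 40.9 and 45.2 CPM, Neurod1-led precursors 17.7 and 46.8 CPM, neural progenitor-like cells 35.1 and 22.9 CPM, and immature VSN-like cells 22.6 and 24.3 CPM. Neighbours among these 4 overlapped, while the ranges of fibroblast-like and immature VSN-like cells did not. The sustentacular-like level was 10.5-fold the fibroblast-like level and 19.3-fold the immature VSN-like level. In mature apical VSN-like cells Rian was at 1.29 and 2.35 CPM, in endothelial-like cells at 1.90 and 1.34 CPM, and in basal epithelial-like cells at 2.06 and 2.70 CPM.

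Mirg, the microRNA host at the far end of the row, was sparse in these libraries. It was at 31.9 and 42.2 CPM in sustentacular-like cells, on 58 and 72 UMIs. Fibroblast-like cells came next, at 3.51 and 7.19 CPM on 9 and 14 UMIs. Immature VSN-like cells were at 1.47 and 1.92 CPM on 6 UMIs in all. No Mirg UMI was found in the mature basal VSN-like, gland-like, endothelial-like, olfactory ensheathing-like or macrophage-like cells. Against endothelial-like cells the sustentacular-like level was at least 69.0-fold higher, and against gland-like cells at least 127-fold higher, taking 3 UMIs over the class as the limit that a count of 0 allows.

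B830012L14Rik, a long noncoding RNA gene annotated with 1 transcript, was likewise sparse. It was at 45.0 and 59.3 CPM in sustentacular-like cells, on 82 and 101 UMIs. Neural progenitor-like cells had 4.38 and 6.31 CPM and fibroblast-like cells 5.85 and 2.57 CPM, which overlapped. Immature VSN-like cells had 2.94 and 1.92 CPM on 9 UMIs. No UMI was found in either mature VSN-like class, nor in basal epithelial-like, gland-like or endothelial-like cells. The sustentacular-like level was at least 171-fold higher than in mature VSN-like cells and at least 199-fold higher than in basal epithelial-like cells, on the same limit.

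The 2 libraries differed in the same direction for all 4 RNAs in sustentacular-like cells, with library 2 above library 1. When the limit on mitochondrial UMIs was raised from 5% to 10%, the class grew to 1375 cells and Meg3 was at 2989 CPM. In that larger class Meg3 was at 2665 CPM in the 273 cells with 2.5% to 5% mitochondrial UMIs and at 3211 CPM in the 410 cells with 7.5% to 10%. Between the same bins Meg3 went from 229 to 572 CPM in fibroblast-like and from 195 to 468 CPM in immature VSN-like cells. In mature apical VSN-like cells it went from 9.92 to 2.90 CPM, with 33.9 CPM in the bin between, from 5% to 7.5%. In basal epithelial-like cells it went from 12.1 to 12.3 CPM, with 27.2 CPM in the bin between. In macrophage-like cells it went from 17.6 to 108 CPM, and that upper bin had 24.4 CPM in library 1 and 198 CPM in library 2. The folds given above thus hold for the 5% limit. With the class cut into 3 equal parts by UMIs per cell, from shallow to deep, Meg3 was at 3030, 2683 and 2564 CPM.

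The amount of Rian relative to Meg3 was also compared between classes. For every 100 Meg3 UMIs there were 16.8 Rian UMIs in sustentacular-like cells (15.9 to 17.7), and the value was 16.8 in each library. Fibroblast-like cells had 19.7 (16.8 to 23.0), with 24.3 and 16 in the libraries. Immature VSN-like cells had 9.7 (7.7 to 12.2), with 9.2 and 10.4, below the sustentacular-like value in both libraries. Neural progenitor-like cells had 23.0 (17.9 to 29.2). The corresponding values for Mirg and B830012L14Rik in sustentacular-like cells were 1.4 and 1.9 UMIs.

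Levels pooled over cells do not show whether the RNAs lay in the same cells, so cells were also scored singly. Without adjusting for depth, 97.5% of the 281 sustentacular-like cells had a Meg3 UMI, 92.5% had Rian, 35.9% had B830012L14Rik and 31.3% had Mirg. All 4 RNAs were found in 39 cells (13.9%), 3 in 104 cells (37.0%), 2 in 121 cells (43.1%), 1 in 13 cells and none in 4 cells. In fibroblast-like cells the shares with all 4 and with 3 were 0.180% and 3.60%. Among 1685 macrophage-like cells, 95.3% had none.

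To set the classes at equal depth, each cell of at least 3000 UMIs was thinned to 3000 UMIs, which left out 7 of the 281 sustentacular-like cells. At that depth Meg3 was found in 96.7% of sustentacular-like cells (93.9 to 98.5), 44.3% of immature VSN-like cells and 41.8% of fibroblast-like cells. It was found in 6.48% of mature basal and 2.37% of mature apical VSN-like cells. In macrophage-like cells, immune cells taken as a reference for free RNA, the thinned share was 2.06% and the unthinned share 3.98%, at medians of 4505 UMIs there and 13511 UMIs in mature apical VSN-like cells. By library the share was 1.22% and 3.8% in the mature apical and 9.09% and 3.77% in the mature basal type, so 1 library moved each by over 1.5 times. In the basal type the order of the libraries went against that of the CPM, and no order is read from the share.

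Rian was found in 66.1% of the thinned sustentacular-like cells (60.1 to 71.7), in 10.8% of fibroblast-like cells and in 6.84% of immature VSN-like cells. Mirg and B830012L14Rik were found in 10.6% and 8.03% of the thinned sustentacular-like cells. A thinned sustentacular-like cell held a median of 8 Meg3 UMIs, with quartiles of 5 and 11 and a range of 0 to 31. The medians were 6 and 9 in the libraries. The variance of the count was 2.94 times its mean, against 1.64 in immature VSN-like and 1.58 in fibroblast-like cells, where the mean counts were 0.76 and 0.71.

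Meg3 and Rian were found together in 178 of 274 thinned sustentacular-like cells, or 65.0% (59.0 to 70.6), with 57.4% and 72.9% in the libraries. Of the cells with Rian, 98.3% had Meg3, and all 29 cells with Mirg and all 22 with B830012L14Rik had Meg3. Since nearly every cell had Meg3, the class gave little contrast: Rian was found in 67.2% of the cells with Meg3 (61.2 to 72.8) and in 33.3% of the 9 cells without it. The correlation of log2 counts across the thinned cells was 0.20, with 0.21 and 0.13 in the libraries, and 0.64 before thinning, when cells also shared differences in depth.

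In the classes of lower level, Rian lay more often in cells with Meg3. Among thinned fibroblast-like cells it was found in 17.1% of cells with Meg3 (12.3 to 22.7) and 6.29% of cells without (3.83 to 9.65). The order was the same in both libraries, at 15.4% against 6.57% in library 1 and 18.3% against 5.77% in library 2. Among immature VSN-like cells the shares were 10.9% (6.66 to 16.4) and 3.64% (1.58 to 7.04). The difference was wide in library 1, at 13.4% against 1.64%, and narrow in library 2, at 7.69% against 6.12%. Cells of 1 library are not replicates, so no test was made over them, and both correlations were 0.22.

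Each of these classes joined 2 clusters, and the order of the shares was the same in each cluster. Rian was found in 46 and 10 thinned cells of the fibroblast-like clusters of 380 and 176. It was found in 18 and 9 thinned cells of the immature VSN-like clusters of 234 and 169. The shares of the smaller clusters thus rest on few cells. In the fibroblast-like cluster of 380 cells, Meg3 was at 209 and 354 CPM and Rian was found in 19.1% of cells with Meg3 and 7.10% of cells without. In the fibroblast-like cluster of 176 cells, Meg3 was lower, at 103 and 155 CPM, and the Rian shares were 9.09% and 5.04%. Meg3 thus did not overlap between the fibroblast-like clusters. The immature VSN-like clusters of 234 and 169 cells gave 11.8% against 4.13% and 9.23% against 3.03%. The latter is called Tfap2e-led here because Tfap2e, a transcription factor of basal VSNs, was among its leading genes, though not the first. In the mixed cluster of 339 no such difference was seen, with 45.0% against 45.5%. At this depth UMIs of both RNAs were found in 0 of 591 mature apical VSN-like cells and 0 of 1118 macrophage-like cells. These counts allow up to 0.508% and 0.268% of cells with UMIs of both at 3000 UMIs per cell, and set no limit on cells that express them.

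**Figure D3:**
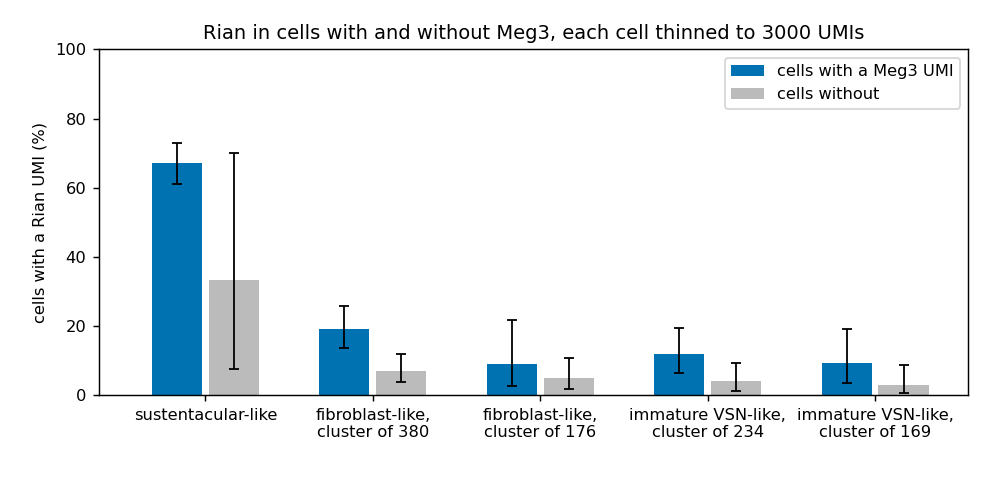
Share of cells with a Rian UMI (percent, y axis) among cells with and without a Meg3 UMI at a depth of 3000 UMIs per cell, with exact 95% intervals. The sustentacular-like class is set beside the clusters of fibroblast-like and immature VSN-like cells, and in each the bar for cells with Meg3 stands higher (19.1% against 7.10% in the fibroblast-like cluster of 380).

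Markers of the sustentacular-like class were also found at low level in the other classes, and Meg3 was set beside them. In sustentacular-like cells there were 173 Meg3 UMIs per 100 UMIs of Cyp2a5 (168 to 179), with 143 and 206 in the libraries. The ratio was 177 (120 to 263) in mature apical VSN-like cells, with 125 and 242 by library. It was 164 (101 to 273) in mature basal VSN-like cells, with 77.8 and 205, and 157 (108 to 230) in macrophage-like cells, with 104 and 208. Over both libraries the intervals of these 3 classes held the sustentacular-like value, and the library 1 value of each was the lower. The ratio was far higher in immature VSN-like cells, at 3761 (2490 to 5965), in Neurod1-led precursors, at 2025, and in fibroblast-like cells, at 7554 (4397 to 14238), where Cyp2a5 was at 7.52 CPM or less. Neural progenitor-like cells lay between, at 325 (262 to 404), with 700 and 151 by library. The ratio was lower in endothelial-like cells, at 44.2 (112 and 33.7 by library), and in basal epithelial-like cells, at 14.5 (9.11 and 37.8). Gland-like and non-sensory epithelial-like cells had the lowest ratios of the named classes, at 7.88 and 5.37. The part of free RNA in the low Meg3 levels was not tested.

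**Figure D4:**
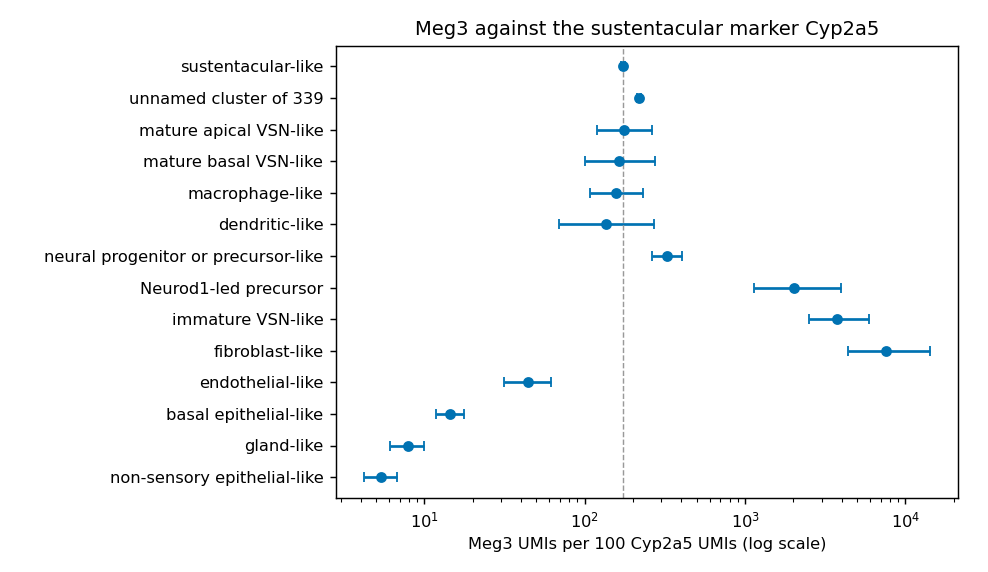
Meg3 UMIs per 100 Cyp2a5 UMIs in each class (log scale, x axis), with intervals for counting error. Mature VSN-like and macrophage-like cells lie near the sustentacular-like value of 173, while immature VSN-like and fibroblast-like cells lie at 3761 and 7554.

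Immature and mature VSN-like cells were compared over the library sums, with edgeR's quasi-likelihood method. The low level in mature neurons is among the values on which the members were selected, so the members are described here without a p. The p-values given for other genes measure the spread between 2 libraries of pooled organs, which may share animals. Meg3 was at 244 and 235 CPM in immature cells against 6.61 and 19.8 CPM in mature cells of both types. The log2 fold change was 4.18 with SE 0.36, and within single libraries it was 3.50 and 5.16. Rian was at 22.6 and 24.3 CPM against 1.61 and 5.35 CPM, a log2 fold change of 2.74 with SE 0.46. Both were thus higher in immature cells in each library.

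Of the 4 members, 2 passed the filter on low counts, Meg3 and Rian. Over all 13647 genes tested, 20.0% were called higher in immature cells and 23.1% lower. Mirg had 6 UMIs in immature and 2 in mature cells, and B830012L14Rik had 9 and 0, too few for the fit. The clusters that make up the immature class were alike in Meg3, at 273 and 230 CPM in the cluster of 234 and 209 and 241 CPM in the Tfap2e-led cluster of 169.

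At the other end of the domain the pooled levels went the opposite way. Dio3os, the noncoding antisense neighbour of Dio3, was at 0.981 and 1.92 CPM in immature and 24.6 and 24 CPM in mature cells, a log2 fold change of -4.15 with SE 0.35 (edgeR, Benjamini-Hochberg adjusted p = 0.000102). Dio3 was at 1.96 and 9.60 CPM against 12.1 and 11.9 CPM, a log2 fold change of -1.20 that did not pass (edgeR, adjusted p = 0.103). It passed with the library as a replicate block (edgeR, adjusted p = 0.0288) and without the Tfap2e-led cluster, where the log2 fold change was -3.09 (edgeR, adjusted p = 0.00188). The mature sum joins both types, which differ in Dio3. In the immature cluster of 234 Dio3 was at 0.885 and 2.16 CPM. Mature apical cells had 0.646 and 1.47 CPM and mature basal cells 68.1 and 51.7 CPM. The Dio3 changes thus do not separate stage from type. In the annotation the genes do not overlap. Dio3os spans 110275385 to 110278172 on the minus strand, and Dio3 spans 110279068 to 110281097 on the plus strand. Their 3′ ends, which the kit counts, thus lie on the sides that face away from each other. Read positions were not examined, and the sources used here do not give whether counting used strand.

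Among mature cells, Dio3 and Dio3os were higher in the basal type, the VSNs that express V2R receptors. Dio3 was at 68.1 and 51.7 CPM in basal and 0.646 and 1.47 CPM in apical cells, a log2 fold change of apical over basal of -5.92 with SE 0.36 (edgeR, adjusted p = 8.54e-05). Dio3os was at 96.4 and 87.6 CPM against 9.90 and 7.34 CPM, a log2 fold change of -3.48 with SE 0.22 (edgeR, adjusted p = 0.000115). Each pair of ranges was far apart. Over all 12693 genes tested, 4.04% were called higher in apical and 5.70% higher in basal cells, and with the library as a block the numbers called rose from 513 to 1094 and from 724 to 1324.

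For the members this comparison turned on library 2. Their levels in mature neurons are among the values on which they were selected, so they are again described without a p. Meg3 was at 6.46 and 13.5 CPM in apical and 7.33 and 43.8 CPM in basal cells, which overlapped, with a log2 fold change of -1.45 and SE 0.67. With the library as a block the value was -1.35, and in library 1 alone it was -0.26, against -1.79 in library 2 alone. Rian, at 1.29 and 2.35 against 3.14 and 16.9 CPM, had a log2 fold change of -2.53 with SE 0.77. These levels are on 122 Meg3 and 32 Rian UMIs in all.

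**Figure D5:**
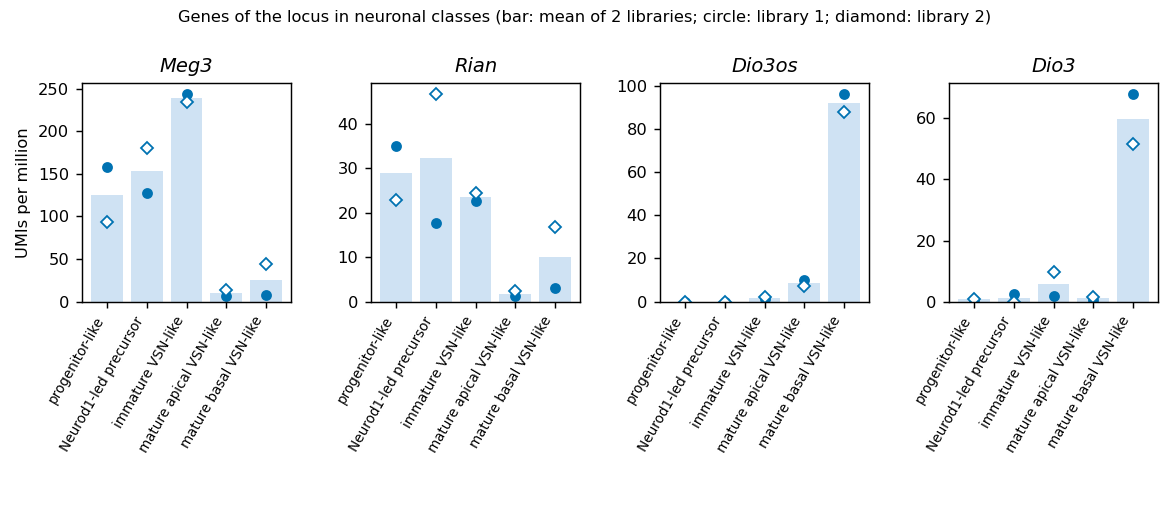
Levels of genes of the domain in neuronal classes, in CPM on linear axes that start at 0, with bars for the mean of the 2 libraries and a mark for each library. Meg3 lies at 244 and 235 CPM in immature VSN-like cells and at 43.8 CPM or less in the mature types, while Dio3 (68.1 and 51.7 CPM) and Dio3os (96.4 and 87.6 CPM) stand highest in mature basal VSN-like cells.

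Against mature VSN-like cells, the sustentacular-like class had Dio3 and Dio3os on 1 UMI each, with mature levels of 12.1 and 11.9 CPM for Dio3. Their log2 fold changes were -5.10 (edgeR, adjusted p = 0.000657) and -6.12 (edgeR, adjusted p = 0.000185). Of the 119 mature Dio3 UMIs, 111 were in the basal type. Mature apical cells had Dio3 at 0.646 and 1.47 CPM, beside 0.549 and 0 CPM in sustentacular-like cells, so the Dio3 difference rests mainly on the basal type. Dio3os was at 9.90 and 7.34 CPM in mature apical cells, beside 0.549 and 0 CPM in sustentacular-like cells. The members' own log2 fold changes in this comparison, by which they were chosen, were 7.86 for Meg3, 7.23 for Rian and 7.39 for Mirg, and B830012L14Rik had 183 UMIs against 0. All 4 being called higher is fixed by that choice, and nothing is read from it. Of 14114 genes tested, 29.0% were called higher in sustentacular-like and 30.9% higher in mature VSN-like cells.

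Against basal epithelial-like cells, the members' log2 fold changes were 7.74 for Meg3, 7.23 for Rian and 5.51 for Mirg, again fixed by the choice. There, 19.8% of 13791 genes were called higher in sustentacular-like and 20.7% higher in basal epithelial-like cells. Begain, a protein-coding gene upstream of Dlk1, had 0 UMIs in sustentacular-like and 15 in basal epithelial-like cells (edgeR, adjusted p = 0.0374), and the call was lost at a clustering resolution of 0.5 (edgeR, adjusted p = 0.0514).

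Of the paternal genes of the domain, Dlk1 and Rtl1 were almost absent from the kept cells. Rtl1 had 1 UMI in sustentacular-like cells and Dlk1 had 0, beside 3 Dlk1 UMIs in basal epithelial-like and 2 in fibroblast-like cells. Outside the mature neurons, Dio3 was at 12.5 and 8.73 CPM in fibroblast-like cells and Dio3os at 26.9 and 18.5 CPM. The split there ran against Meg3, since the fibroblast-like cluster of 176, with the lower Meg3, had Dio3 at 29.6 and 17.2 CPM and Dio3os at 48.0 and 37.3 CPM, and the cluster of 380 had Dio3os at 13.9 and 8.0 CPM.

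Imprinted genes elsewhere in the genome differed in both directions. Of 47 such genes, 33 could be tested between sustentacular-like and mature VSN-like cells, with 8 called higher in sustentacular-like cells and 16 lower, beside 29.0% and 30.9% of all genes. Their median log2 fold change was -0.61, beside -0.08 over all genes. Mest, an imprinted gene of the hydrolase family, was at 24.2 and 24.6 CPM against 0.179 and 0 CPM, and Phlda2, an imprinted growth regulator, had 57 UMIs against 1. Slc22a18, a transporter gene of the same imprinted cluster as Phlda2, was at 45.6 and 42.8 CPM against 0.357 and 0.698 CPM. Nap1l5 was at 1.65 and 1.76 CPM against 127 and 146 CPM, a log2 fold change of -6.15. Against basal epithelial-like cells, 36 could be tested, with 6 higher and 9 lower, beside 19.8% and 20.7% of all genes, and a median of 0.08 beside -0.05. Zdbf2 had 0 UMIs against 89 there and Ascl2 had 1 against 68, while Mest had a log2 fold change of 4.57 and Ppp1r9a one of 3.14.

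Between immature and mature VSN-like cells, 31 of these genes could be tested, with 8 higher in immature cells and 8 lower, beside 20.0% and 23.1% of all genes. Their median log2 fold change was 0.19, beside -0.02 over all genes. Nnat, which codes for the membrane protein neuronatin, was at 18.6 and 35.8 CPM against 1.61 and 0 CPM, a log2 fold change of 4.79 with SE 0.73 (edgeR, adjusted p = 0.00174). Usp29, beside Peg3 in another imprinted domain, had a log2 fold change of 3.35 with SE 0.43, Nap1l5 one of -3.65 with SE 0.28, and Dcn, which codes for the matrix protein decorin, one of -3.71 with SE 0.70. Dcn is also a marker of the fibroblast-like class, at 14574 CPM there against 60.5 CPM in all other cells. The part of free RNA in its level in other classes was not tested. Between the mature types 28 could be tested, with 2 higher in apical cells, Peg3 and Airn, and 2 higher in basal cells, Copg2 and Tssc4, beside 4.04% and 5.70% of all genes.

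The list called the imprinted gene network holds 14 genes and overlaps with those above. Between sustentacular-like and mature VSN-like cells, 4 of 10 tested were higher (Gnas, Mest, Plagl1, Grb10) and 4 lower (Peg3, Ndn, Cdkn1c, Igf2r), beside 29.0% and 30.9% of all genes. Against basal epithelial-like cells, 3 of 11 were higher (Mest, Dcn, Grb10) and 3 lower (Igf2, Cdkn1c, Igf2r), beside 19.8% and 20.7%. In immature against mature VSN-like cells, 4 of 9 were higher (Nnat, Gnas, Peg3, Cdkn1c) and 3 lower (Ndn, Dcn, Igf2r), beside 20.0% and 23.1%. Between the mature types 1 was called of 8, Peg3, higher in apical cells, beside 4.04%.

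Of 10 other long noncoding RNAs, 7 could be tested between sustentacular-like and mature VSN-like cells, and the 4 called were lower in sustentacular-like cells, namely Snhg14, Kcnq1ot1, Tug1 and Peg13, beside 30.9% of all genes. Against basal epithelial-like cells the 3 called of 7, Kcnq1ot1, Peg13 and Neat1, were lower too, beside 20.7%. Malat1, an abundant nuclear RNA, was at 25072 and 23280 CPM in sustentacular-like and 33572 and 28048 CPM in mature VSN-like cells (edgeR, adjusted p = 0.189). Between immature and mature cells 2 of 8 were higher, Miat with a log2 fold change of 4.22 and Kcnq1ot1 with 1.29, and 3 were lower, Peg13, Malat1 and Neat1, beside 20.0% and 23.1%. Between the mature types the 3 called of 7, Airn, Malat1 and Neat1, were higher in apical cells, beside 4.04%. Some of these genes are also imprinted and stand on both lists.

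The genes whose level across the 19 classes was most like that of each member were taken by the lower of the 2 libraries' correlations of log2(CPM + 1), over 7376 genes that reached 50 CPM in a class. The members were selected on their levels in these classes, so nothing is read from their own likeness, which was 0.916 for Meg3 and Rian, 0.897 for Mirg and B830012L14Rik, and between 0.779 and 0.849 for the other pairs. Beside the members, Meg3 was nearest to Eya4 (0.856), Crabp1 (0.787), Tpi1 (0.749), Hmgcs1 (0.726) and Pmvk (0.716). Eya4 codes for a transcriptional cofactor and phosphatase, and was at 126 CPM in sustentacular-like, 35.1 CPM in fibroblast-like and 2.75 CPM in immature VSN-like cells. Crabp1, a binding protein for retinoic acid, had another order, since its level was 560 CPM in sustentacular-like and 2276 CPM in immature VSN-like cells.

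Eya4 and Tpi1 were also nearest to Rian (0.790 and 0.760), followed by Abca13 (0.755), Ugt2a2 (0.718) and Pmvk (0.716). Mirg was nearest to Pcdh15 (0.807), Abca13 (0.783), Cpxm2 (0.782), Gulo (0.773) and Tpi1 (0.759). B830012L14Rik was nearest to Abca13 (0.849), Eya4 (0.840), Ugt2a2 (0.808), 1700001O22Rik (0.801) and Agr3 (0.791). Ugt2a2 codes for a conjugating enzyme of the nasal epithelium and Abca13 for a lipid transporter. The points of these correlations are classes that share the same 2 libraries and differ in depth.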

How the data were processed

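Per the labels and the study's methods, the authors aligned the reads to mm10 with Cell Ranger and joined the libraries with its aggregation step, whose depth setting the sources used here do not give. The deposited values used here are raw UMI counts per gene and cell in each library (108005626 and 95442231 UMIs over 12814 and 11270 barcodes). Cells with 200 to 9000 genes and at most 5% mitochondrial UMIs and genes in at least 3 cells were kept, which left 10592 cells. Clusters were made with Seurat 5.3.0 (2000 variable genes without those of the domain, 30 components, resolution 0.8) in R 4.3.3. A class was named where at least 3 of its markers were 4-fold above the other cells. After the values were seen, a second pass at 2-fold, a minimum of 50% of cells with a marker and a few names set by hand from leading genes were added. Doublets were called with Scrublet (scanpy 1.11.5) and kept in the main values. UMI counts were summed per library and class and tested with edgeR 4.0.16 (quasi-likelihood, at least 10 UMIs over the sums, adjusted p under 0.05), with DESeq2 1.42.0 as an alternative. Same-numbered sums come from the same library, and library differences correlated between the classes of each comparison (0.202 to 0.312). On simulated data, edgeR found 46% to 62% of 2-fold and 94% to 98% of 4-fold changes, with 3.64% to 5.39% false calls. Those counts were drawn independently with the same dispersion for every gene, and only 200 well-counted genes were changed. The real sums share libraries and had more genes called, so these rates need not apply to them. The members and lists were chosen with earlier results of these data known. Genes named are all members and neighbours, the called members of each list or, past 4, those of largest change (for the imprinted gene network, all called), and the 5 nearest genes by likeness, with a few chosen after their values were seen. Promoter and microRNA sequences are from RefSeq (GRCm38.p6), and transcript ends from GENCODE vM21. No promoter entry was used for B830012L14Rik. The labels give the number of organs in each library, not of mice. The paper gives a total of 5 male mice, so whether the libraries hold separate animals is not known.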

Additional observations from a re-analysis of the deposited data

How the results depend on the processing

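No log2 fold change changed direction, and counts, levels and shares were not scored for direction. Of 66 counts of genes, 448 levels or shares and 194 log2 fold changes recomputed, 60, 371 and 172 kept their value within 1.5 times the count or within the spread between libraries and kept their call. The levels, shares and log2 fold changes include values without a library. Those values also set the spread they were judged by, so their staying within it was largely fixed in advance. Between the mature types, the Meg3 log2 fold change was -1.35 with the replicate block and -1.42 without the filter on low counts, and ranged from -1.79 to -0.26 without a library. Genes higher in apical cells numbered 1094 with the block and 1099 without the filter, and genes higher in basal cells 1324 with the block. The block also brought Dio3 in immature cells past the threshold, and changed no other call of the results named for genes other than the members. Against basal epithelial-like cells, the Meg3 log2 fold change was 7.34 at a mitochondrial limit of 10%, where 4248 genes were higher in sustentacular-like cells, and DESeq2 called 1789 higher and 1735 lower. The share of sustentacular-like cells with Meg3 and Rian was 88.0% thinned to 6000 UMIs, 33.8% thinned to 1000 and 33.6% when 2 UMIs were asked for. Begain at a resolution of 0.5 had an edgeR adjusted p of 0.0514. Thinning to 1000 UMIs, cells of 3000 UMIs or more, the immature class without its Tfap2e-led cluster and the 10% limit with cells under 5% alone were chosen after seeing the data. Among neurons, Mirg and B830012L14Rik stayed under the filter on low counts.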
